A study of Homo sapiens with 6 samples.

Results

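Peaks at the starts of stand-alone long non-coding RNA (lncRNA) genes were examined in the high-confidence SMARCA4 binding sites of K562 cells. A lncRNA gene was taken as stand-alone where its 5′ end lay more than 5 kb from the start of every protein-coding transcript, and a peak was a member where it overlapped the 500 bp either side of such a 5′ end. Of the 28265 peaks in the list, 731 met this rule, and they lay at 755 of the 13387 stand-alone lncRNA genes of the annotation. K562 cells derive from a patient with chronic myelogenous leukaemia and have long been grown as a line. SMARCA4 was mapped in these cells by chromatin immunoprecipitation and sequencing (ChIP-seq), with 3 libraries made with an antibody to SMARCA4 and 3 input libraries made with none. No treatment, dose or second cell type was compared. The deposited list pools the replicates and gives positions only, so every number here is a count, a share, a width or a position of regions.

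SMARCA4, also called BRG1, is an ATPase of the SWI/SNF chromatin remodelling complexes, which use ATP to slide or evict nucleosomes at promoters and enhancers. LncRNA genes are transcribed by RNA polymerase II and often start at elements that resemble either the CpG islands of housekeeping promoters or the CpG-poor enhancers of lineage genes. In erythroid and megakaryocytic cells such enhancers are typically bound by GATA factors and often by AP-1. A G-quadruplex (G4) is a four-stranded fold that guanine-rich DNA can adopt, and promoter CpG islands are rich in the letters that allow it.

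The sequences below are examples of members with GATA letters or G4 motifs (hg19, each 5′ to 3′ on the strand named). All were chosen for holding such a motif, whereas 286 of the 731 members held neither in the 400 bp around the midpoint. The first pair holds GATA letters, marked by capitals, at start sites of known host transcripts. MIR223HG hosts a microRNA of the myeloid lineage, and the 151 bases at chrX:65235181-65235331, centred on its 5′ end on the plus strand, hold 1 GATA match. SNHG12 hosts small nucleolar RNAs, and its whole peak at chr1:28909731-28909884, given on the minus strand of the gene, holds 2.
MIR223HG: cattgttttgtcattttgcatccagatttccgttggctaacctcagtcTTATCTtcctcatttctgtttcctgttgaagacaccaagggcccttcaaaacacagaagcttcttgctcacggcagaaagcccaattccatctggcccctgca
SNHG12: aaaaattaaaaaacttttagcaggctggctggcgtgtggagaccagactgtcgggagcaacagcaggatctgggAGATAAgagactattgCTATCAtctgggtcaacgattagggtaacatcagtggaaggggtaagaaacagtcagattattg

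The member with the most GATA letters lay at HECW2-AS1, which runs antisense inside the protein-coding gene HECW2, with 7 matches in its 400 bp. The second in that order, with 6, lay at LINC02770. Their stretches, at chr2:197124454-197124674 and chr1:191792995-191793218 on the plus strand, are shown to set the spacing of the matches beside the counts given later.
HECW2-AS1: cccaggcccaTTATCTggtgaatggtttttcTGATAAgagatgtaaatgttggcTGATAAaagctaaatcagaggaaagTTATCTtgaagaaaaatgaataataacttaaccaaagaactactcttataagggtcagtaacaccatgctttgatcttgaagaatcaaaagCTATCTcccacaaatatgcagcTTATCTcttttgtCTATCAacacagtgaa
LINC02770: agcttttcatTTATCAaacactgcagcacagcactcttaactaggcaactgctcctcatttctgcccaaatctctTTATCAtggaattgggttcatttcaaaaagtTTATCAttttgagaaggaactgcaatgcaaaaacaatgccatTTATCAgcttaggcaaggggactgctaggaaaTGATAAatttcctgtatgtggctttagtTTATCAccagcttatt

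Shorter stretches came from 2 of the lncRNAs listed by name, to show the letters at known genes. JPX, known as an activator of XIST, has a GATA match at chrX:73163940-73163965, and UCA1, first described in urothelial cancer, has 1 of the 2 in its 400 bp at chr19:15939484-15939509, both given on the plus strand. The capitals mark the GATA letters.
JPX: atttcaaaagAGATAAaggctgtgag
UCA1: gaccaggaaaAGATAAgagggtgggc

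The member with the most G4 motifs lay at RENO1, with 4 in 400 bp, and the peak at DLEU2 held 1. The RENO1 motifs lay at chr17:79319786-79319805 on the plus strand and at chr17:79319888-79319911, chr17:79319943-79319966 and chr17:79320022-79320066 on the minus strand, in that order, and the DLEU2 motif lay at chr13:50699752-50699773 on the minus strand. Capitals mark the runs of guanine.
RENO1: GGGGcGGGaGGGGtgcaGGG
RENO1: GGGGGcGGGGcggcGGGGGcGGGG
RENO1: GGGcccGGGaccGGGaggcgcGGG
RENO1: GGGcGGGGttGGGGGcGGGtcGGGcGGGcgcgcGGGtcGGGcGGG
DLEU2: GGGGGGaGGGGaGGGGGaGGGG

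The first question was how often a stand-alone lncRNA start carried a peak. A peak lay within 500 bp of the 5′ end in 5.64% of the 13387 genes (95% Wilson interval 5.26 to 6.04%). The same measure gave 40.01% of 20163 protein-coding genes and 36.6% of the 5315 lncRNA genes that start within 5 kb of a coding transcript, so that the difference from protein-coding genes was -34.4 percentage points (95% Newcombe interval -35.2 to -33.6). For the lncRNA genes within 5 kb of a coding transcript, peaks that also lay at a coding start were counted. In the whole list, 267 peaks lay at such lncRNA starts but over 500 bp from every coding start. The 36.6% is therefore not a share of peaks that belong to lncRNA starts alone. Genes and regions are not independent replicates, and all intervals cover counting error only. The occupied starts were mostly outside protein-coding genes, at 632 of 9381 genes (6.74%), with 94 of 2828 (3.32%) inside a coding gene on the opposite strand and 29 of 1178 (2.46%) inside one on the same strand.

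CpG-rich starts were occupied far more often than CpG-poor ones. A start was called CpG-rich where the 500 bp either side held at least 55% GC and an observed to expected CpG ratio of at least 0.65. Of the stand-alone lncRNA genes, 751 had a CpG-rich start, and 259 of these (34.5%, Wilson interval 31.2 to 38.0%) had a peak, against 496 of the 12636 CpG-poor starts (3.93%, 3.60 to 4.28%). The gap to protein-coding genes remained within each class. It was -27.5 percentage points (Newcombe interval -30.9 to -23.9) among CpG-rich starts, where 62.0% of 9759 coding genes had a peak, and -15.5 points (-16.3 to -14.7) among CpG-poor starts, where 19.4% of 10404 did. Expression of these genes was not measured here, and its part in the gap was not tested.

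The coverage along the genes was centred on the annotated 5′ end. At the 5′ end itself, a peak covered 26.9% of CpG-rich and 2.65% of CpG-poor stand-alone lncRNA starts, and these shares fell to 2.40% and 0.673% at 1000 bp upstream and to 2.80% and 0.799% at 1000 bp downstream. The corresponding shares at the 5′ ends of protein-coding genes were 49.9% and 12.4%.

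**Figure D1:**
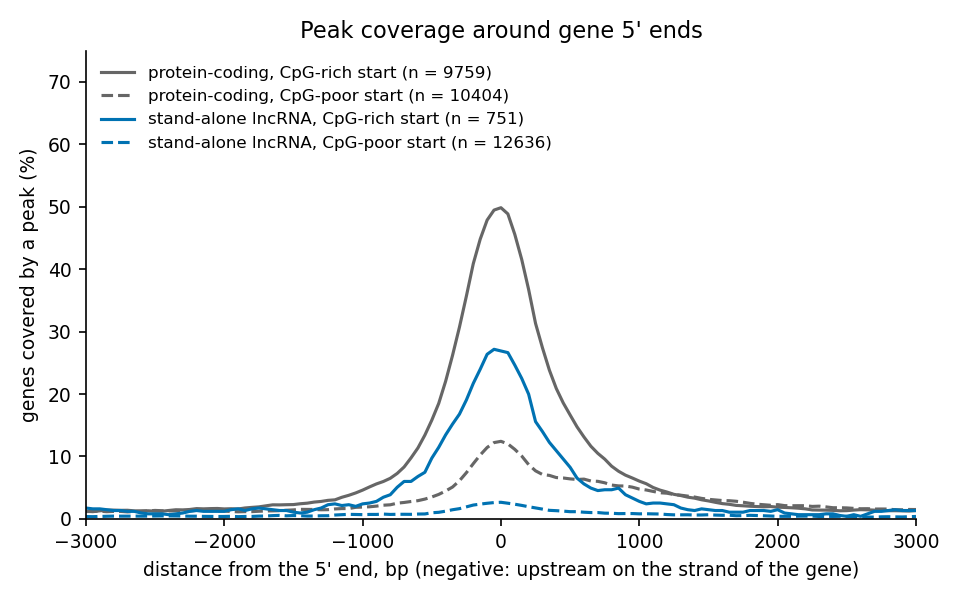
Share of genes covered by a SMARCA4 peak (%) against the distance from the annotated 5′ end in bp, on the strand of the gene, for stand-alone lncRNA and protein-coding genes with CpG-rich or CpG-poor starts. All 4 lines are highest within 50 bp of the 5′ end, with the CpG-rich stand-alone lncRNA genes at 26.9% and the CpG-poor ones at 2.65% at 0 bp.

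Host genes of small nucleolar RNAs (snoRNAs) stood out among the name classes. These genes carry snoRNAs in their introns, and their names begin with SNHG. Of the 18 stand-alone SNHG genes, 15 had a peak (83.3%, Wilson interval 60.8 to 94.2%), against 5.54% of the other stand-alone lncRNA genes, a difference of 77.8 percentage points (Newcombe interval 55.2 to 88.6). Within CpG-rich starts alone the shares were 81.8% and 33.8%, a difference of 48.0 points (18.3 to 61.5), and 6 of the 7 SNHG genes with a CpG-poor start had a peak as well. Some of these starts lay just under the limits, at SNHG29 (56.4% GC and a ratio of 0.644), SNHG30 (54.7% and 0.645) and SNHG21 (54.1% and 0.742). The others were lower in GC, at SNHG6 (48.2% and 0.536), SNHG11 (50.9% and 0.4935) and SNHG12 (51.0% and 0.630). Of the 15 peaks assigned to SNHG genes, 13 were themselves CpG-rich. The peak covered the annotated 5′ end in 12 of the 15 genes. Their widths ran from the 1535 bp of SNHG6 and the 1493 bp of SNHG32 to the 223 bp of SNHG17 and the 154 bp of SNHG12, taking the widest peak of each gene. SNHG14, SNHG27 and SNHG28 were the 3 without a peak. SNHG14 lies in the imprinted Prader-Willi region and holds 72 annotated snoRNAs on its strand, far more than any other gene with an SNHG name.

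Names are given by curators, so the snoRNA hosts were also taken by position. Of 72 stand-alone lncRNA genes that hold an annotated snoRNA on their own strand, 20 had a peak (27.8%, Wilson interval 18.8 to 39.0%), of which 12 came from the 61 genes without an SNHG name. The share was thus above the 5.40% of genes that hold neither a snoRNA nor a microRNA and below that of the SNHG genes. Several SNHG genes, such as SNHG5 and SNHG6, hold no annotated snoRNA in this annotation, so the name and the position pick different genes.

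Host genes of microRNAs, with names of the form MIR..HG, were occupied at 11 of 67 starts (16.4%, Wilson interval 9.42 to 27.1%), 10.8 percentage points above the other stand-alone lncRNA genes (Newcombe interval 3.83 to 21.5). The occupied starts were mostly CpG-rich. A peak lay at 8 of the 11 CpG-rich starts of this class, namely those of MIR17HG, MIR23AHG, MIR210HG, MIR762HG, MIR1915HG, MIR9-1HG, MIRLET7A1HG and MIRLET7IHG, a difference of 38.8 points (9.31 to 56.6) from the other CpG-rich starts. At CpG-poor starts it was 3 of 56, namely MIR223HG, MIR181A2HG and MIR3945HG, and there the difference from other CpG-poor starts was 1.44 points, with an interval that included 0 (-2.10 to 10.7). MIR17HG, which hosts an oncogenic microRNA cluster, had a peak of 1054 bp with 73.3% GC in its 400 bp, and neither a G4 motif nor GATA letters there. MIRLET7A1HG, host of let-7 microRNAs, had the widest peak of the class at 1817 bp. By position, 32 of 244 stand-alone lncRNA genes that hold a microRNA on their strand had a peak (13.1%). MIR155HG, MIR100HG and MIR99AHG had none.

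Among the remaining names, 84 of 602 genes with some other symbol had a peak (14.0%), as did 53 of 808 with an antisense name (6.56%), 130 of 2111 with a LINC name (6.16%) and 460 of 9657 known by an identifier only (4.76%). Intronic or overlapping names had 1 of 117, at MUC20-OT1. Other symbols that end in P, with or without a number, often name transcribed copies of protein-coding genes such as PMS2P3 and SDHAP1. This group was formed after the values were seen, and 36 of its 176 genes (20.5%) had a peak against 11.3% of the rest of the other symbols. The difference of 9.19 points (Newcombe interval 2.92 to 16.3) was not found within CpG-rich starts, where the shares were 44.4% and 51.1% (-6.62 points, -24.5 to 11.8).

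**Figure D2:**
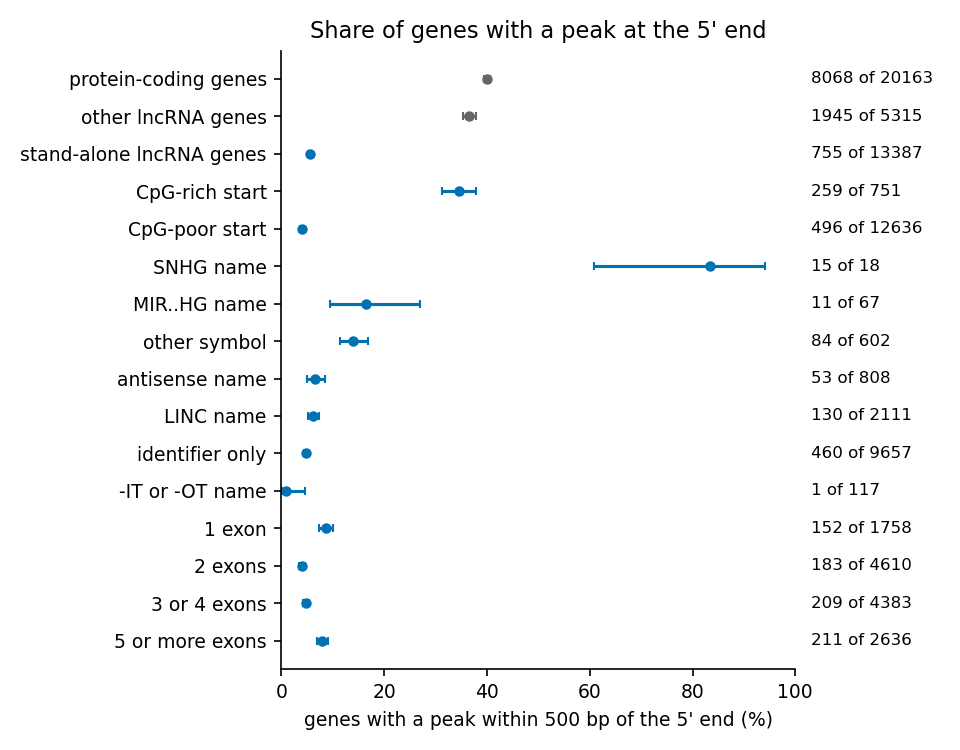
Share of genes with a SMARCA4 peak within 500 bp of the 5′ end (%), with 95% Wilson intervals as bars and the counts on the right, for protein-coding genes, other lncRNA genes and classes of stand-alone lncRNA genes. The SNHG names lie at 83.3%, against 5.64% of all stand-alone lncRNA genes.

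Exon number and distance to the nearest coding gene also went with occupancy. Genes whose transcripts have 1 exon had a peak in 8.65% of 1758 cases, and those with 2 or more exons in 5.19%. The share at 2 or more exons minus that at 1 exon was -3.46 points (Newcombe interval -4.92 to -2.17), and it was larger among CpG-rich starts, where 56.6% of 113 genes with 1 exon had a peak and 30.6% of the others did (-26.1 points, -35.5 to -16.2). The shares were not ordered by exon number, since genes with 5 or more exons had a peak in 8.005% of 2636 cases. Stand-alone lncRNA genes up to 50 kb from a coding start had a peak in 7.64% of cases and those farther away in 3.81%, a difference of 3.83 points (3.05 to 4.63). This difference was present in both CpG classes, at 13.4 points (6.51 to 19.9) for CpG-rich and 2.43 points (1.74 to 3.12) for CpG-poor starts. Farthest out, over 500 kb from any coding start, 28 of 946 genes (2.96%) had a peak.

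The 731 peaks themselves had a median width of 461 bp (95% order-statistic interval 423 to 493 bp), close to the 447 bp (439 to 455) of the 10537 peaks within 500 bp of a protein-coding transcript start and wider than the 341 bp (337 to 346) of the 12138 distal peaks, which lie over 5 kb from every coding start and away from lncRNA 5′ ends. A wide peak overlaps a fixed window more readily than a narrow one, and distal peaks were taken without a window, and the part of this choice in the difference was not tested. The median was 489.5 bp with 250 bp and 425 bp with 1000 bp either side of the 5′ end. The greater width relative to distal peaks was seen in both CpG classes of peaks. The medians were 488 bp (434 to 524) against 388 bp (357 to 409) in CpG-rich peaks and 442.5 bp (395 to 486) against 340 bp (335 to 345) in CpG-poor ones. In the CpG-poor class the peaks at stand-alone lncRNA starts were also wider than those at coding promoters, which had a median of 364 bp (350 to 380). Another peak lay within 5 kb of 48.3% of the 731 peaks, a share between the 56.7% of coding promoter peaks and the 37.8% of distal peaks.

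NEAT1, the scaffold RNA of nuclear paraspeckles, had the widest of all 28265 peaks. It measured 10019 bp, at chr11:65186076-65196094, and covered the 5′ end. The abundant nuclear lncRNA MALAT1, in the same region, had a peak of 3472 bp over its 5′ end at chr11:65264203-65267674, and the antisense TALAM1 at the far end of MALAT1 had 1 of 2606 bp. The megabase from 65 to 66 Mb of chromosome 11 held the most member peaks of any. In it, 11 of 13 stand-alone lncRNA genes had a peak, against 5.64% of all such genes. Its 9 member peaks were shared among these 11 genes. The megabase was picked for its number of member peaks, so a high share follows from that choice. A further 3 of the 10 widest lay in the gene body of DLGAP1 on chromosome 18, on the opposite strand, at DLGAP1-AS2 (3793 bp), DLGAP1-AS1 (3219 bp) and ENSG00000266401 (2640 bp). All 3 had under 50% GC in their 400 bp. The others were at ENSG00000285646, ENSG00000272719 inside ACTB, ENSG00000289159 near KLF9 and ENSG00000290081 near PDZK1IP1, and measured 2364 to 2573 bp. Peaks of 2000 bp or more numbered 11 of 731, against 143 of all 28265.

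Within the window that the rule sets, 473 of the 731 peaks (64.7%, Wilson interval 61.2 to 68.1%) covered the nearest stand-alone lncRNA 5′ end, 125 lay wholly upstream and 133 wholly downstream. The midpoint was upstream of the 5′ end in 370 of 729 peaks, leaving out 2 centred on it, and the median offset was -5 bp (-27 to 15). Midpoints therefore showed no side that the interval could separate from 0. CpG-rich peaks covered the 5′ end in 71.3% of cases (65.8 to 76.3%) and CpG-poor peaks in 60.6% (56.0 to 65.0%). Of the members, 98 lay at 2 or more stand-alone lncRNA genes, and in 84 the genes were on both strands, as at DLEU2 and ENSG00000274270 or SNHG16 and ENSG00000267546.

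**Figure D3:**
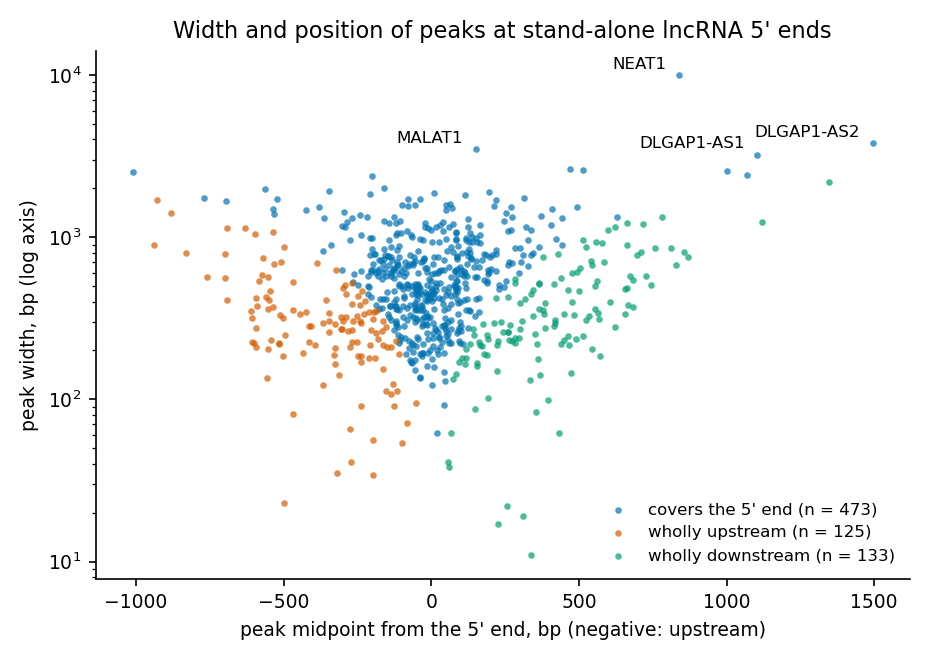
Width of each of the 731 peaks in bp (log axis) against the distance of its midpoint from the nearest stand-alone lncRNA 5′ end in bp, on the strand of the gene. Colours separate the 473 peaks that cover the 5′ end from the 125 upstream and 133 downstream of it, and the 4 widest peaks are labelled, with NEAT1 at 10019 bp.

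Motifs were then counted in the 400 bp around each peak midpoint, so that all classes were read over the same length. A G4 motif needed 4 guanine runs, each 3 bases or longer, joined by 1 to 7 bases, the GATA motif read as AGATAA or as AGATAG or as TGATAA or as TGATAG, and the AP-1 motif was TGAGTCA, each on either strand. A peak was CpG-rich by the same limits as above. Over all 28265 peaks, 33.3% were CpG-rich, 23.2% held a G4 motif, 51.4% a GATA motif and 16.4% an AP-1 motif. At the 731 stand-alone lncRNA peaks the shares were 38.2% (Wilson interval 34.7 to 41.7%), 23.9% (21.0 to 27.2%), 42.7% (39.1 to 46.3%) and 15.9% (13.4 to 18.7%). The G4 and AP-1 shares were thus near those of the whole list.

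Against coding promoters and distal peaks, the members were intermediate in all 4 measures. CpG-rich peaks made up 75.1% of coding promoter peaks and 4.75% of distal peaks, and the differences of the lncRNA peaks from these were -37.0 points (Newcombe interval -40.5 to -33.3) and 33.4 points (29.9 to 37.0). G4 motifs were found in 42.9% and 8.58% of these classes, with differences of -18.9 points (-22.0 to -15.6) and 15.4 points (12.4 to 18.6). GATA motifs were found in 20.8% and 75.8%, with differences of 21.9 points (18.3 to 25.6) and -33.1 points (-36.7 to -29.4). AP-1 motifs were found in 5.46% and 25.2%, with differences of 10.4 points (7.90 to 13.3) and -9.37 points (-12.0 to -6.44). The 267 peaks at other lncRNA starts, which leave out those within 500 bp of a coding start, were intermediate too. They were at 33.7% CpG-rich, 30.7% G4, 36.7% GATA and 13.9% AP-1. Lying between coding promoters and distal peaks was thus not particular to stand-alone starts.

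GC content moves with each of these motifs, so the classes were also compared within GC classes of 2 percentage points by a Mantel-Haenszel odds ratio. For the G4 motif the interval then included 1 against both coding promoters (0.876, 95% interval 0.717 to 1.07) and distal peaks (0.878, 0.707 to 1.09). For GATA it did not, with an odds ratio of 1.34 (1.12 to 1.603) against coding promoters and 0.583 (0.487 to 0.699) against distal peaks. The AP-1 odds ratios were 2.06 (1.64 to 2.59) and 0.737 (0.597 to 0.909). At equal GC, the stand-alone lncRNA peaks therefore held GATA and AP-1 letters more often than coding promoters and, in this window, less often than distal peaks. The comparison with distal peaks depended on the settings. Over the whole peak the odds ratio was 1.59 (1.31 to 1.93) for G4, 0.847 (0.707 to 1.01) for GATA and 0.969 (0.798 to 1.18) for AP-1. The AP-1 interval also included 1 with 1 peak for each gene (0.825, 0.667 to 1.02) and with 250 bp either side of the 5′ end (0.813, 0.653 to 1.01).

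**Figure D4:**
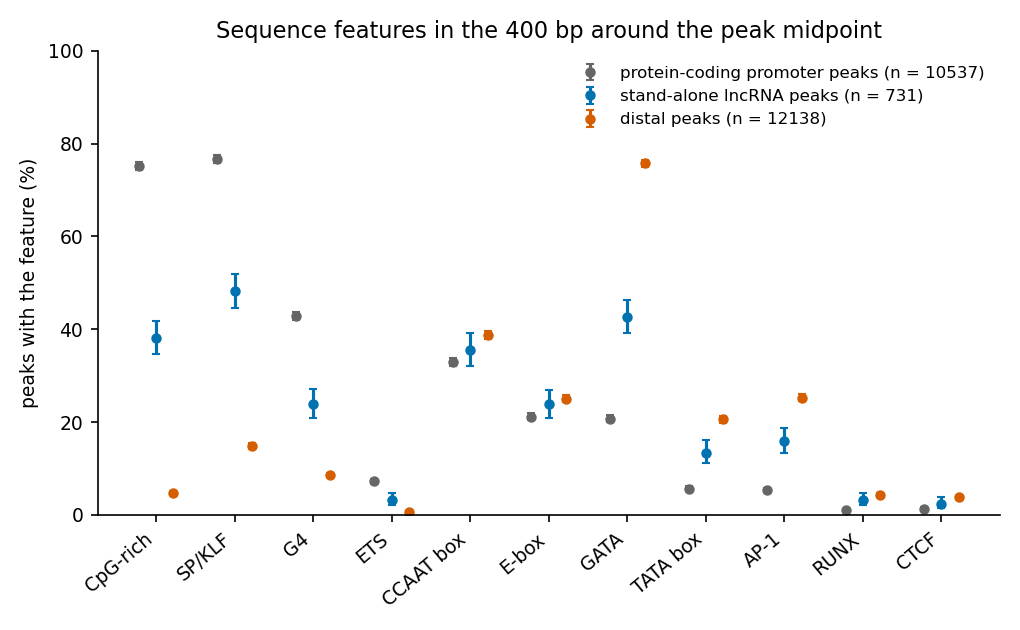
Share of peaks with each sequence feature in the 400 bp around the midpoint (%), with 95% Wilson intervals as bars, for protein-coding promoter, stand-alone lncRNA and distal peaks. The stand-alone lncRNA peaks lie between the other classes for every feature, as for GATA at 42.7% between 20.8% and 75.8%.

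Other promoter letters differed in how far they set the members apart. SP/KLF letters (GGGCGG), which overlap the guanine runs of the G4 motif, were found in 48.3% of the stand-alone lncRNA peaks and in 41.0% of all peaks. Within GC classes their odds ratio was 0.640 (0.526 to 0.779) against coding promoters and 1.75 (1.43 to 2.144) against distal peaks. ETS letters (CCGGAAGT) were found in 3.15% (all peaks 3.18%), with odds ratios of 0.456 (0.298 to 0.698) and 2.37 (1.42 to 3.95), and CCAAT box letters (CCAAT) in 35.6% (all peaks 35.8%), with 0.841 (0.715 to 0.990) and 1.27 (1.08 to 1.4995). These 3 kinds of letters were thus intermediate at equal GC, below coding promoters and above distal peaks. The plain CCAAT shares ran the other way, at 32.9% of coding promoter and 38.7% of distal peaks, with intervals of both differences that included 0. The CTCF consensus, found in 2.46% (all peaks 2.93%), was intermediate in the other direction, with odds ratios of 1.81 (1.09 to 2.996) against coding promoters and 0.334 (0.205 to 0.545) against distal peaks. For the other letters the interval included 1 against either coding promoters or distal peaks. RUNX letters (TGTGGTTT), in 3.15% (all peaks 2.88%), had odds ratios of 1.88 (1.165 to 3.04) and 1.09 (0.704 to 1.70), in the same order. E-box letters (CAGCTG), in 23.8% (all peaks 23.3%), had 1.1599 (0.967 to 1.39) and 0.774 (0.646 to 0.928). TATA box letters (TATAAA), in 13.4% (all peaks 14.3%), had 1.12 (0.871 to 1.43) and 1.47 (1.15 to 1.87), although their plain share was 7.73 points above coding promoters (5.41 to 10.4) and differed from distal peaks by -7.20 points (-9.59 to -4.44). A match is a description of the letters and not evidence that the factor binds.

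The members were a mixture of CpG-rich and CpG-poor peaks. Of the 731, 279 were CpG-rich and 452 CpG-poor. The CpG-rich ones held G4 motifs in 39.8% of cases (34.2 to 45.6%), SP/KLF letters in 83.2% and GATA letters in 19.4%. The CpG-poor ones held G4 motifs in 14.2% (11.2 to 17.7%), SP/KLF letters in 26.8% and GATA letters in 57.1% (52.5 to 61.6%). G4 and GATA motifs stood together in 42 members, G4 alone in 133, GATA alone in 270 and neither in 286. The joint share of 5.75% (4.28 to 7.68%) was close to the 5.35% of coding promoter peaks and the 4.202% of distal peaks, so few peaks of any class held both. GATA and AP-1 motifs stood together in 67 of the 731 (9.17%), against 18.2% of distal peaks and 1.87% of coding promoter peaks.

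Neither class was a copy of its counterpart. These are plain shares, and no comparison at equal GC was made within the CpG classes. Among CpG-rich peaks, those at stand-alone lncRNA starts had G4 motifs less often than those at coding promoters (-9.60 points, -15.3 to -3.65) and GATA letters more often (6.62 points, 2.35 to 11.7). For AP-1, SP/KLF, ETS, CCAAT box, E-box, TATA box and CTCF letters the interval of the difference from coding promoters included 0. Over all peaks, the G4 odds ratio against coding promoters at equal GC had an interval that included 1 (0.876, 0.717 to 1.07). Compared with the 577 CpG-rich distal peaks, the CpG-rich members had fewer CTCF matches, at 1.79% against 9.19% (-7.39 points, -10.2 to -4.26), and more CCAAT boxes, at 32.6% against 23.1% (9.57 points, 3.21 to 16.1). The intervals included 0 for G4 motifs (-6.14 points, -13.0 to 0.955) and GATA letters (0.984 points, -4.40 to 6.82). They also included 0 for AP-1, SP/KLF, RUNX, E-box and TATA box letters. Among CpG-poor peaks, those at stand-alone lncRNA starts had fewer GATA letters than the distal ones, at 57.1% against 78.7% (-21.6 points, -26.2 to -17.0), and more SP/KLF letters, at 26.8% against 11.7% (15.1 points, 11.2 to 19.4). Their AP-1 share of 22.6% differed from the 26.1% of CpG-poor distal peaks by less than the interval could separate (-3.58 points, -7.28 to 0.570). The same held for ETS, CCAAT box, RUNX, E-box, TATA box and CTCF letters.

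**Figure D5:**
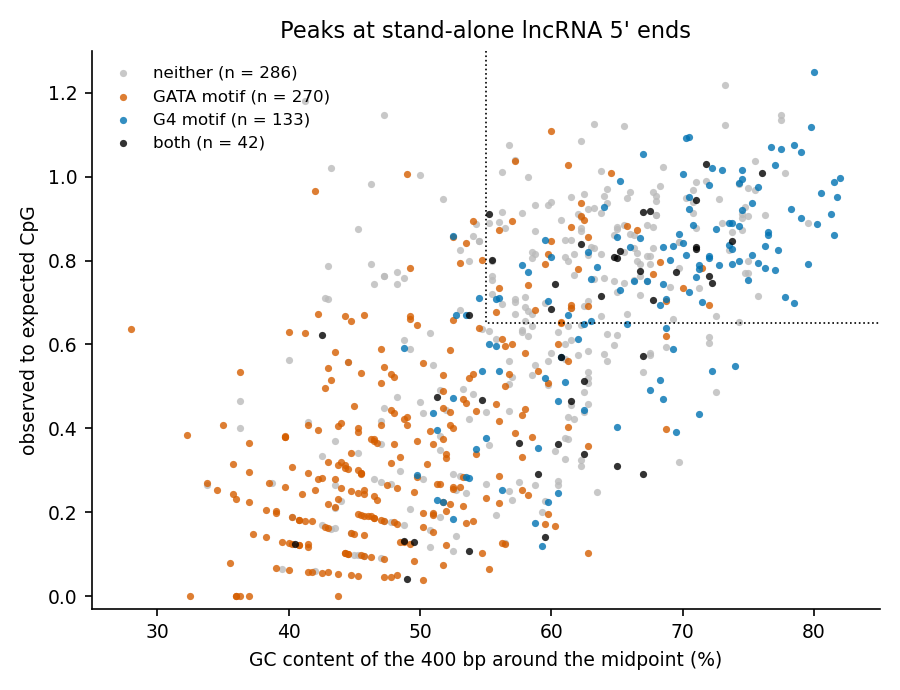
Observed to expected CpG against GC content (%) in the 400 bp around the midpoint of each of the 731 peaks, coloured by whether a G4 motif, a GATA motif, both or neither was found. The dotted lines mark the limits for CpG-rich peaks, which 279 peaks passed, and the 270 peaks with GATA but no G4 motif lie mostly below them.

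Of 40 lncRNAs listed by name, 16 had a member peak, 11 were stand-alone with none, 11 started within 5 kb of a coding start and 2 were not annotated as lncRNA under the symbol used. Over all 13387 stand-alone lncRNA genes, the share with a peak was 5.64%. The list was chosen with earlier results of these data known, so its counts are not read as a trait of known lncRNAs. The 16 were MALAT1, NEAT1, MIR17HG, MIR223HG, DLEU1, DLEU2, SNHG5, SNHG12, SNHG15, SNHG16, KCNQ1OT1, UCA1, LUCAT1, DANCR, JPX and LINC00173. The peak covered the 5′ end at most of them, and lay upstream at SNHG12 and downstream at SNHG15, UCA1 and LINC00173. KCNQ1OT1, the imprinted antisense transcript inside KCNQ1, had a peak of 520 bp with 73% GC. DLEU1 and DLEU2, from the chromosome 13 region lost in chronic lymphocytic leukaemia, had CpG-rich peaks of 488 bp and 537 bp, and DLEU2 had a further peak of 328 bp upstream. The peak at MIR223HG, of 494 bp, was CpG-poor with a CpG ratio of 0.0756. The LINC00173 peak was only 38 bp wide, and the G4 motif in its 400 bp lay outside it. Stand-alone lncRNAs of the list without a peak within 500 bp were PVT1, CCDC26, MIR155HG, MIR100HG, MIR99AHG, MIR181A1HG, H19, MEG3, MIAT, CYTOR and FTX.

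The largest number of member peaks at 1 gene was 3, at 6 genes, and 77 genes had 2 or more. The genes with 3 included ENSG00000288925 near BTG2, ENSG00000229178 and MUC20-OT1, which share their 3 peaks, and ENSG00000287263. Peaks with 3 G4 motifs in the 400 bp included those at ENSG00000291156, ENSG00000290319 and LINC01694, and the peaks following LINC02770 in GATA matches lay at ENSG00000259986 with 5, and, among those with 4, at PDE7B-AS1 and ENSG00000288968.

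At the limits of the rule, the members closest to 5 kb from a coding start were at ENSG00000261839 (5034 bp) and MATN1-AS1 (5081 bp, with 2 peaks), while lncRNA genes with a peak at 4947, 4935 and 4830 bp fell outside, at ENSG00000230286, ENSG00000269514 and ENSG00000272366. For the 500 bp window, the last members lay 500, 498 and 496 bp from the 5′ end, at ENSG00000253190, ENSG00000288955 and PDE7B-AS1, and the first peaks outside lay at 501, 502 and 503 bp, at ENSG00000290009, ENSG00000274979 and ENSG00000284707.

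Some of these starts lie in duplicated sequence, where reads are hard to place. When error-free reads of 75 bases were taken from each peak and placed back on the genome, 23 of the 731 peaks (3.15%, Wilson interval 2.11 to 4.68%) had under 80% of their reads returned to their origin, against 0.456% of coding promoter peaks and 2.07% of distal peaks. They include peaks at WASH2P, TEKT4P2, GUSBP2, PMS2P3 and MUC20-OT1, which should be read as uncertain.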

How the data were processed

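The deposited list places each region by chromosome and by its 2 ends, on hg19 by the submitters' notes. The authors trimmed the reads, aligned them with BWA, took out duplicates, used MACS2 with input as control on every replicate at a q-value below 0.05, and kept peaks found in 2 of 3 replicates. The list itself holds positions only, and the sequencing depth stated in the reporting summary was not used. Cells had been fixed with disuccinimidyl glutarate and then formaldehyde. The paper's results call the replicates biological, whereas the GEO design text calls them technical and names a single input, although 3 input libraries are labelled. The description field of the ChIP libraries reads G4 ChIP-seq, and their titles name SMARCA4.

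Gene starts came from GENCODE release 44 lifted to hg19. Classes, motif counts, Wilson, Newcombe and order-statistic intervals and Mantel-Haenszel odds ratios were computed with Python 3.11.15, numpy 2.4.6, pandas 2.3.3, scipy 1.17.1, statsmodels 0.14.6 and pysam 0.24.0, with functions checked on simulated data, and drawn with matplotlib 3.10.9. Reads of 75 bases, taken every 25 bases, were placed with minimap2 2.31 and counted as returned at a mapping quality of at least 10. No p-value was computed, since the replicates are pooled. Alternatives varied the peak width, merging, site width, distance to coding starts, start definition, motif window, loop length and CpG limits, and used autosomes only or 1 peak for each gene. Genes were named from among a list of 40 lncRNAs, the 10 widest peaks, the 5 genes with most peaks, the 5 peaks each with most G4 and GATA motifs, and the members at the limits of the rule, and not every gene that these rules give is printed. SNHG and MIR..HG hosts were named as classes. Outside these rules, genes were named just beyond the limits, as examples of symbols that end in P, and under other observations. Further names came from peaks whose reads could not be placed and from megabases with many member peaks. Members and lists were chosen with earlier results of these data known.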

Additional observations from a re-analysis of the deposited data

How the results depend on the processing

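No paired analysis was possible because the list pools the replicates and holds no value per replicate, and for the same reason no replicate could be left out. The 8 differences in CpG-rich, G4, GATA and AP-1 shares kept their sign, with intervals that excluded 0, in all 108 recalculations, with other peak widths, windows, distances, start definitions and motif limits, on autosomes alone, and without the peaks whose reads could not be placed. Leaving out those peaks, and the settings for SNHG genes and CpG-rich starts, were chosen after the data were seen, as were the odds ratios for letters other than G4, GATA and AP-1. The odds ratios for G4, GATA and AP-1 in the main setting were planned, whereas their recalculations were not listed among the planned results. The number of peaks ranged from 636 to 923. The share of genes with a peak became 5.20% with peaks of at least 200 bp, 5.17% with 250 bp either side, 6.48% with 1000 bp and 6.39% with the start of every lncRNA transcript. The median width became 505 bp with peaks of at least 200 bp and 550 bp with peaks at most 500 bp apart merged. The share that covered the 5′ end became 69.2% with peaks of at least 200 bp, 73.2% after merging, 74.4% and 51.6% with 250 and 1000 bp either side, and 68.2% with every transcript start. These windows set the counts by construction.

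The odds ratios within GC classes against distal peaks were less stable. That for G4 went from 0.878, with an interval that included 1, to 1.59 over the whole peak, with an interval above 1. Intervals came to include 1 for GATA over the whole peak (0.847) and for AP-1 over the whole peak (0.969), with 250 bp either side (0.813) and with 1 peak for each gene (0.825), and the cause was not tested. The SNHG share ranged from 77.8% to 84.2%, and the difference at CpG-rich starts from -28.6 to -26.5 points. The comparison of repeat content was not run, since the genome sequence used is not soft-masked. The list gives no height per peak, so weak and strong binding could not be told apart.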

Other observations

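Some lncRNAs outside the naming rule were picked after their values were seen. SMANTIS, a transcript named for its interaction with SMARCA4, had a peak of 1093 bp over its 5′ end, CpG-poor and with 3 GATA matches in the 400 bp. NORAD, a lncRNA that holds Pumilio proteins, had a CpG-rich peak of 1157 bp over its 5′ end with 2 G4 motifs. On the X chromosome, peaks covered the 5′ ends of JPX (524 bp), FIRRE (481 bp) and XACT (756 bp), while XIST, TSIX and FTX had none within 500 bp.

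Occupancy of stand-alone lncRNA starts also varied by chromosome. It was 9.95% of 623 genes on chromosome 7 and 9.59% of 678 on chromosome 6, against 5.64% of all 13387. It was 2.52% of 436 on chromosome 18 and 0 of 94 on chromosome Y. Whether these cells hold chromosome Y was not measured here, so its count is not read as low occupancy. The megabases named here were picked from among those with the most member peaks. On chromosome 7, the megabase from 66 to 67 Mb had a peak at 7 of its 9 stand-alone lncRNA genes, GTF2IRD1P1, PMS2P4 and STAG3L4 among them. On chromosome 6, the megabases from 26 to 29 Mb had 5 of 13, 3 of 9 and 7 of 12 such genes with a peak, in that order. DNA copy number in these cells was not measured here, and its part in these differences was not tested.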
